A study of Homo sapiens with 32 samples.

Results

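Untreated U2OS cells that carry the p53 A347D change on 1 allele were compared with U2OS cells that have only wild-type p53. U2OS is a human osteosarcoma line. The comparison rested on 8 of the 32 poly-A RNA libraries of the series, chosen by their labels: 4 of heterozygous A347D cells (HET) and 4 of wild-type cells (WT), all given DMSO, the drug vehicle, for 24 h. All 35587 gene symbols in the expression matrix were considered, and the 14984 that reached 10 normalized counts in 4 or more of the 8 libraries were tested. Set beside them were HET and WT cells given 20 µM etoposide, a topoisomerase II poison, for 24 h, and, in DMSO, cells homozygous for A347D (HOM) and p53 knockout cells (KO), with 4 libraries each. The edited lines were made with CRISPR-Cas9, and separate plates served as the biological replicates. How many edited lines stood behind each genotype is not stated, so the allele and the line cannot be told apart, and the p-values speak only for the variation from plate to plate.

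p53 is a transcription factor that works as a tetramer and binds paired response elements near its target genes. Its targets include CDKN1A, which arrests the cell cycle, the death genes BAX and BBC3, and MDM2, the ligase that degrades p53. The changed residue lies in the tetramerization domain, and the series describes the mutant as dimer-forming, as found in Li-Fraumeni syndrome. In a heterozygous cell, mutant and wild-type subunits can mix in the same oligomer.

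Recovered read totals were 20.83 to 22.98 M counts in HET libraries and 23.29 to 24.19 M counts in WT libraries. Transcripts of the mitochondrial genome took 7.87 to 9.43% of the counts in HET libraries and 10.06 to 15.15% in WT libraries. Osteoblast genes were expressed in both genotypes. The 9 osteoblast markers in the matrix summed to 54850 to 84191 normalized counts in HET libraries and 78400 to 126676 in WT libraries. Of the 7 tested, RUNX2 and COL1A2 were called higher, while COL1A1 (-0.63) and ALPL (-0.5) were among those that did not pass. RUNX2, the transcription factor of bone formation, had a mean of 1225 normalized counts in HET cells and 627 in WT cells. SPARC, a bone matrix protein, had 33301 in HET cells and 40826 in WT cells, a difference that did not pass the test, while IBSP had no count and BGLAP reached at most 8.75 in a HET library and 14.3 in a WT library. Among markers of other cell types, the 6 blood markers summed to 19.3 to 38.9 normalized counts in HET libraries and 13.3 to 21.9 in WT libraries, and none of them was abundant enough to be tested. The 5 skeletal muscle markers summed to 23.6 to 39.0 in HET libraries and 38.1 to 60.8 in WT libraries, with MYOG at 0 in both groups and MYOD1 at 0 in HET cells. The 5 endothelial markers summed to 161 to 240 in HET libraries and 111 to 133 in WT libraries. Of the 3 tested, VWF and KDR were called higher, and PECAM1 (-0.63) did not pass. The 7 epithelial markers summed to 1309 to 1640 in HET libraries and 797 to 1030 in WT libraries, with KRT14 called higher among 3 tested. The 6 neural markers summed to 165 to 177 in HET libraries and 295 to 421 in WT libraries, with SYP and GFAP called lower among 3 tested. Of all genes tested, 18.6% were called higher and 16.8% lower, and calls among so few markers are given as values only. CDKN2A, which U2OS cells are known to lack, had at most 1.74 normalized counts in a HET library and 1.93 in a WT library. ATRX and TERT were listed with it as U2OS traits. ATRX averaged 2322 in HET cells and 1212 in WT cells and was called higher, with a log2 difference of 0.97. The marker values and calls are without the correction for base composition described below. TERT had 0 in HET libraries and 3.54 to 11.2 in WT libraries and was not tested.

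Between HET and WT cells in DMSO, 2790 genes were higher and 2515 were lower in HET cells, which is 35.4% of the 14984 genes tested. A gene was called with limma's moderated test at a Benjamini-Hochberg adjusted p under 0.05 and a change of at least 1.5-fold. The differences reached extremes in both directions. CDKN2B, EPYC and LUM were among the genes that rose most, and IGFBP4, GPAT2 and SPRY4 among those that fell most. The HET and WT libraries did not overlap for 44.9% of the genes tested. In all, 164 genes were at least 4-fold higher and 304 at least 4-fold lower in HET cells. All log2 differences below are of normalized counts plus 1, HET minus WT, which understates the change of genes near 0.

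The direction of the calls followed transcript base composition. Genes below 40% GC had a median log2 difference of 0.75 and those at 65% GC or above had -0.54, while the median of all tested genes was 0.01. Across 14934 genes with a GC value, the Spearman correlation of the log2 difference with GC was -0.61, and with transcript length 0.07; this is across genes, which are not independent replicates. Each library was also scored by the level of its AT-rich genes (below 42% GC) minus that of its GC-rich genes (above 60% GC), relative to the WT mean. The score was 1.05, 1.66, 0.62 and 1.15 in the HET libraries, against -0.18, 0.49, -0.07 and -0.21 in the WT libraries. The groups did not overlap. With the trend on GC content and length removed from each library, 1556 genes were higher (10.4%) and 1820 lower (12.2%), 22.6% of the 14934 tested, of which 1166 and 1457 were also called in the same direction without the correction, and no called gene turned. The mitochondrial share of the libraries moved with genotype as well, and its part in the other differences was not tested. Values with this trend removed are given below as GC-corrected beside the counts of gene lists and beside single genes whose call or sign they change.

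**Figure D1:**
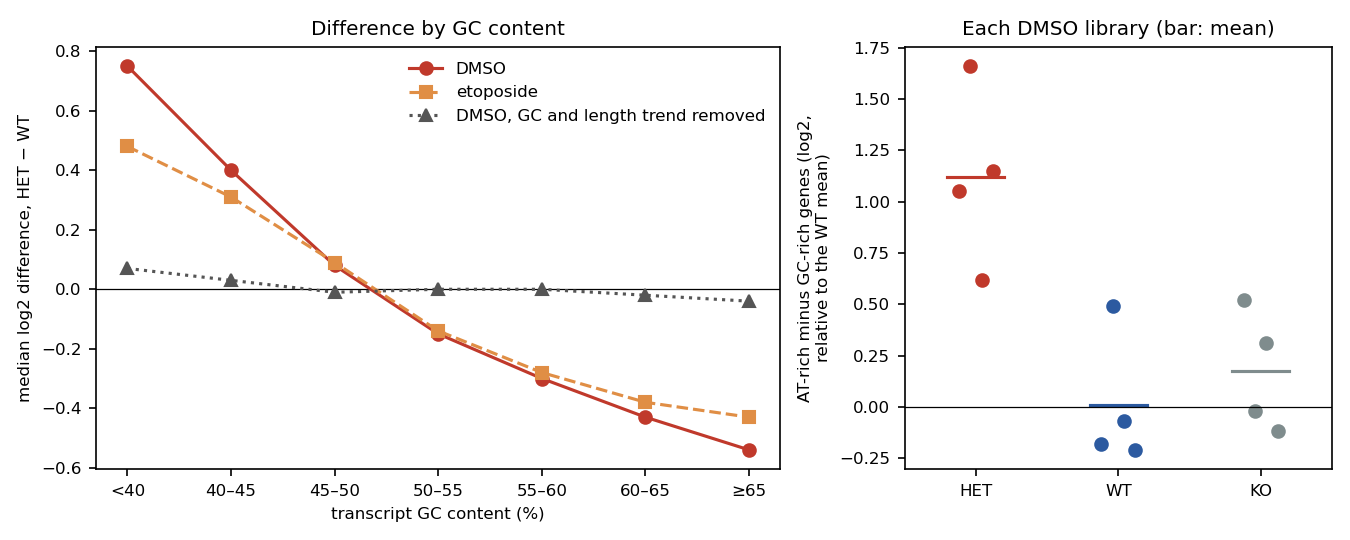
Left, the median log2 difference between HET and WT cells in 7 classes of transcript GC content, for DMSO, for etoposide and for DMSO with the GC and length trend removed. Right, the score of each DMSO library, with the mean as a bar. In DMSO the median falls from class to class, 0.75 below 40% GC and -0.54 at 65% GC or above, and the 4 HET libraries score between 0.62 and 1.66, above the highest WT library at 0.49.

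The p53 pathway was examined through its target genes. CDKN1A, the p21 inhibitor of cyclin-dependent kinases, had 1488, 1385, 1748 and 1583 normalized counts in HET libraries, against 5513, 3830, 4426 and 4833 in WT libraries. Every HET library lay below every WT library. In bulk RNA, fewer expressing cells and less RNA per cell cannot be told apart. The log2 difference was -1.58 ± 0.13 (adjusted p = 4.46e-06). The HET level was also lower than in KO cells, which held 2741 to 3289 normalized counts, with a log2 difference of HET minus KO of -0.98 (adjusted p = 1.04e-05).

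GDF15, a stress-induced secreted cytokine, had 25.4, 15.6, 23.6 and 26.6 normalized counts in HET libraries, against 208, 221, 284 and 261 in WT libraries. The HET values were all far below the WT values, with a log2 difference of -3.38 ± 0.19 (adjusted p = 3.79e-07). KO cells held 22.5 to 51.2 normalized counts, and HET minus KO was -0.50, which did not pass. DDB2, a damage sensor of nucleotide excision repair, and APOBEC3C, a cytidine deaminase, were also lower in HET than in WT cells. DDB2 had 978, 960, 1150 and 972 normalized counts in HET libraries, against 2036, 1618, 2024 and 2051 in WT libraries (-0.93), and 829 to 1002 in KO libraries. APOBEC3C averaged 1345 in HET cells and 2318 in WT cells (-0.78), and KO cells held 1344 to 1539; its call was lost with total-count scaling, at -0.50.

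Other well known targets did not pass. MDM2 had 415, 436, 325 and 433 normalized counts in HET libraries, against 354, 388, 188 and 256 in WT libraries. These groups overlapped (0.48 ± 0.21, adjusted p = 0.0749), the sign turned with the GC correction (-0.13), and total-count scaling brought a call at 0.76. BAX, which permeabilizes the outer mitochondrial membrane, had a log2 difference of -0.22 (adjusted p = 0.168), and BBC3, which encodes the BCL2 antagonist PUMA, had -0.40 (adjusted p = 0.0186, under 1.5-fold). With the GC correction the values of BAX and BBC3 turned to 0.05 and 0.07.

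**Figure D2:**
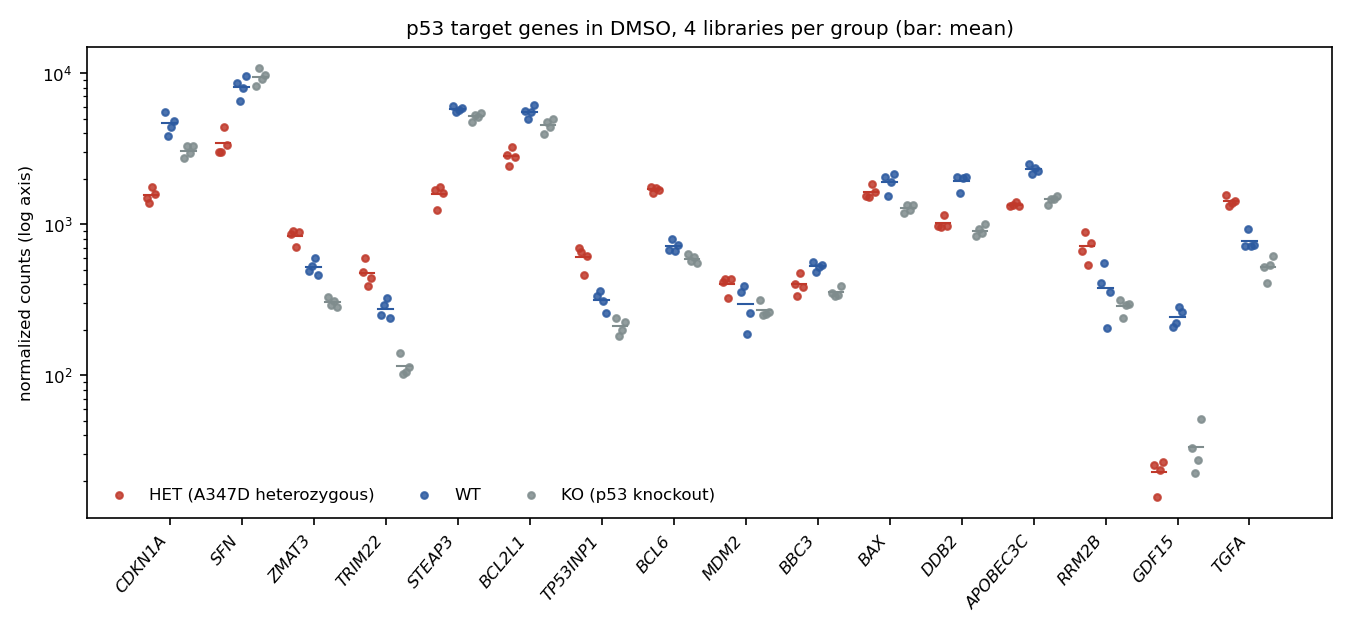
Normalized counts (log axis) of 16 p53 target genes in the 4 HET, 4 WT and 4 KO libraries in DMSO, with each group's mean as a bar. The 4 HET points of CDKN1A, at most 1748, lie below all WT and KO points, those of GDF15 and DDB2 lie in the range of KO cells or near it, and those of ZMAT3 and TRIM22 lie above both.

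Of 133 p53 targets in 5 lists, 118 were tested, and 17 were higher and 34 lower in HET cells. Over all genes tested 18.6% were higher and 16.8% lower. The median log2 difference of the targets was -0.19, against 0.01 over all genes. The GC correction gave 10 higher and 30 lower, where 10.4% and 12.2% of all genes were called. The counts depended on the scaling of libraries, since total-count scaling gave 26 targets higher and 22 lower. That scaling called 4627 of all 14984 genes higher and 1419 lower. The median of the targets was then 0.09, still below the 0.28 of all genes. Among cell cycle arrest targets 2 were higher and 7 lower of 17, and after the GC correction 0 and 5. Among secreted and other targets 6 were higher and 19 lower of 48, and 2 and 14 with the correction. Of 26 cell death targets 3 were higher and 4 lower, and 4 and 5 with the correction.

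The lower arrest and survival genes included SFN, the 14-3-3 sigma protein that holds cells in G2, at -1.25 ± 0.15 (adjusted p = 9.08e-05). BCL2L1, which encodes the survival protein BCL-XL, fell by 0.98 on the log2 scale, with 2433 to 3238 normalized counts in HET libraries and 4966 to 6115 in WT libraries. STEAP3, an endosomal ferrireductase, fell by 1.89. SFN had 2990 to 4408 normalized counts in HET libraries and 8200 to 10733 in KO libraries, and STEAP3 had 1241 to 1765 in HET libraries and 4756 to 5482 in KO libraries. CYFIP2, a regulator of the WAVE actin complex, fell by 1.20. PRDM1, a transcriptional repressor, fell by 2.39, and SYTL1, a vesicle traffic protein, by 2.79.

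A smaller set of p53 targets was higher. SOD2, the mitochondrial superoxide dismutase, had 3038, 3546, 2526 and 3010 normalized counts in HET libraries, against 805, 918, 1059 and 840 in WT libraries, and rose by 1.74 ± 0.13 (adjusted p = 2.31e-06). The 2 groups did not overlap. BCL6, a transcriptional repressor, rose by 1.25, FUCA1, a lysosomal fucosidase, by 0.96, and TGFA, an EGF receptor ligand, by 0.88, and these calls held with the GC correction. ZMAT3 (0.69), TRIM22 (0.77), TP53INP1 (0.94) and RRM2B (0.96), the p53-induced ribonucleotide reductase subunit, passed as well but lost their calls with the correction, at 0.21, 0.35, 0.41 and 0.42. Without the correction, all 4 were also above KO cells, by 1.46, 2.03, 1.51 and 1.30. The base composition score of the KO libraries was 0.52, -0.02, 0.31 and -0.12, below that of every HET library.

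Set against KO cells in DMSO, 30 of 119 p53 targets were higher and 24 lower in HET cells. Of all 14996 genes tested, 36.7% were called, 2878 higher and 2623 lower. Given etoposide, 5 of 123 targets were higher and 41 lower in HET than in WT cells. There, 29.2% of all 15872 genes tested were called, 2254 higher and 2374 lower. The target counts of these 2 comparisons are without the GC correction. The CDKN1A difference was then -0.93, and that of GDF15 was -2.31.

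Beyond the p53 pathway, several genes were close to silent in HET cells and well expressed in WT cells, and others the reverse. Promoter sequences of IGFBP4 and CDKN2B, the most abundant gene of each kind among the named ones, are shown because each gene differed nearly as much as off from on. Both sequences are from RefSeq (GRCh38.p14), from 250 bases before to 50 bases after the transcription start, with CG dinucleotides in capitals. IGFBP4 lies at chr17:40443200-40443499 on the + strand with 30 CG dinucleotides, and CDKN2B at chr9:22009256-22009555 on the - strand with 25.
IGFBP4: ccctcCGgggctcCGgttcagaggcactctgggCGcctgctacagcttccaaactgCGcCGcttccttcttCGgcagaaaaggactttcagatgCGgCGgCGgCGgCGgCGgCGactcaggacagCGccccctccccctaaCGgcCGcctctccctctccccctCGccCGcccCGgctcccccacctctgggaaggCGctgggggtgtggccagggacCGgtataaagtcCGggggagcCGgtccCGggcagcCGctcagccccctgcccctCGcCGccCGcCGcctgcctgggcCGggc
CDKN2B: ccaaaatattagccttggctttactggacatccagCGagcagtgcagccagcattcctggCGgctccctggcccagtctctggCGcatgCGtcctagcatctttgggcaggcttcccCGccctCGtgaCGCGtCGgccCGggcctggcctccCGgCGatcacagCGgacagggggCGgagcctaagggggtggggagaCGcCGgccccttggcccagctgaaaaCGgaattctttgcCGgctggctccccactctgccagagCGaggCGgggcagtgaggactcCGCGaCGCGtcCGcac
The median over the 11015 tested genes matched to such a promoter was 26 CG dinucleotides. The p53 half-site, searched by its consensus on both strands, was in neither sequence. It was in 5.6% of the promoters of higher genes, 5.5% of lower genes, 5.1% of tested genes that were not called and 6.5% of all 27305 promoters in the table. Of the 95 p53 targets with a promoter, 8 held it. A match or its absence in this window is a description of letters only.

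IGFBP4, a secreted protein that binds insulin-like growth factors, had 0, 1.74, 2.63 and 2.66 normalized counts in HET libraries, against 1889, 1525, 1674 and 1696 in WT libraries. The gene was almost absent from HET libraries, with a log2 difference of -9.43 ± 0.35 (adjusted p = 2.44e-08). It was as low in KO cells, at 0.950 to 4.28 normalized counts, and high in HOM cells, at 3448 to 3761. HOM values are given as ranges, since 3 of the 4 HOM libraries stood apart with mitochondrial shares of 20.68 to 21.92%. HOXB2, a homeobox gene, and DLX4, another homeobox factor, had the same arrangement. HOXB2 had 1.75 to 7.97 normalized counts in HET libraries and 212 to 290 in WT libraries, with 3.80 to 7.80 in KO libraries. DLX4 had no count in HET cells and a mean of 58.3 ± 10.9 (SD, n = 4) in WT cells, which makes it at least 22.2-fold lower given a floor of 3 counts per library.

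Other genes were near 0 in HET cells but not in KO cells. GPAT2, a glycerol-3-phosphate acyltransferase, had 11.4, 11.3, 21.9 and 15.04 normalized counts in HET libraries, against 1604, 1310, 1186 and 1664 in WT libraries (-6.54 ± 0.21, adjusted p = 7.33e-09), and 661 to 980 in KO libraries. SPRY4, a feedback inhibitor of receptor tyrosine kinase signalling, had at most 2.60 in HET libraries and at least 169 in WT libraries. MAML1, the co-activator that NOTCH uses in the nucleus, had 0.875 to 11.4 in HET libraries, against 298 to 478 in WT libraries. GLUL, glutamine synthetase, had 2.62 to 4.34 in HET libraries and 252 to 346.6 in WT libraries, and was between them in KO cells at 26.6 to 43.9. FHOD3, a formin of actin filaments, NLRP5, an oocyte protein, and ADAMTS14, a procollagen protease, had log2 differences of -6.23, -5.83 and -5.77. PKP3, a desmosomal plaque protein, and KCNK10, a potassium channel, had -5.12 and -5.28, and C1QTNF1, a secreted protein, had -5.43.

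The histone gene HIST2H2AA3 had no count in HET libraries and 74.3 to 440 normalized counts in WT libraries, at least 99.7-fold lower. It has a near-identical copy, HIST2H2AA4, so the split of reads between them is uncertain. OSR2, an odd-skipped transcription factor, held 2 counts in all HET libraries and averaged 55.1 normalized counts in WT cells.

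Among the genes that rose, CDKN2B, which encodes the CDK4 and CDK6 inhibitor p15, had 750, 792, 681 and 763 normalized counts in HET libraries, against 15.3, 14.2, 10.6 and 8.17 in WT libraries. The groups were far apart, with a log2 difference of 5.87 ± 0.19 (adjusted p = 7.33e-09). CDKN2B was at 0 to 1.90 in KO cells and 0 to 1.05 in HOM cells. EPYC, a small leucine-rich proteoglycan of cartilage, had 181 to 321 normalized counts in HET libraries and 0 to 2.65 in WT libraries. LUM, the related proteoglycan lumican, had 2165 to 4024 in HET libraries, against 113 to 249 in WT libraries (4.17 ± 0.24). MMP13, a collagenase of bone and cartilage, had 1116 to 1781 in HET libraries and 69.5 to 112 in WT libraries (4.06). HEYL, a NOTCH target gene of the HES family, rose by 4.91, RTP3, a receptor transporter, by 5.15, IGFL3, a growth factor of the IGF-like family, by 4.68, and CLEC7A, the beta-glucan receptor dectin-1, by 3.73. CLEC3A, a C-type lectin of cartilage, rose by 4.05, and FAM155B and KIAA1755 by 4.55 and 3.68.

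PI15, a secreted peptidase inhibitor, had 410 to 921 normalized counts in HET libraries and 17.4 to 44.2 in WT libraries (4.32 ± 0.30). With etoposide its difference was -0.12, which did not pass. GAGE2A, a cancer-testis antigen, rose by 4.27, but belongs to a multi-copy family whose reads may be split uncertainly. FABP5P7, a pseudogene of FABP5, rose by 4.30 with a wide error of 1.05, and its WT libraries ranged between 0 and 42.9 normalized counts. GTSF1, a germline factor of the piRNA pathway, had 1377 to 1570 in HET libraries, against 112 to 167 in WT libraries (3.40), and MAGEA10, a cancer-testis antigen on the X chromosome, rose by 3.62.

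**Figure D3:**
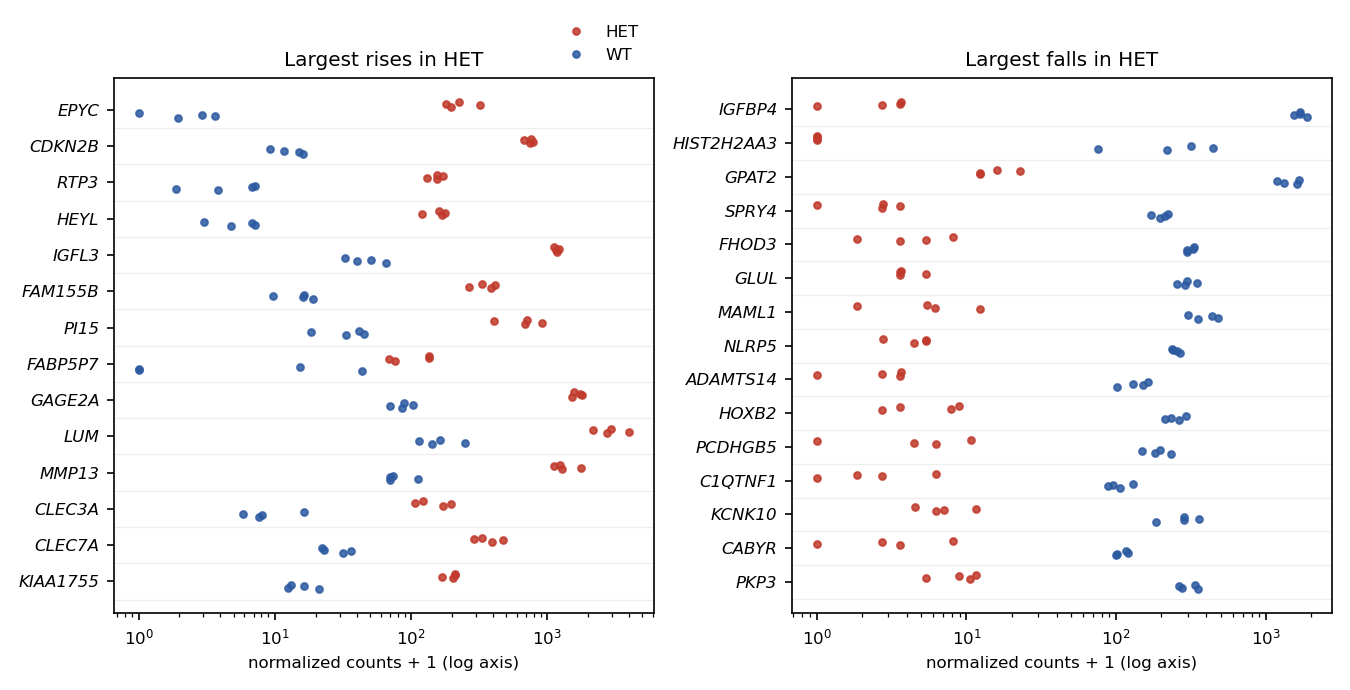
Normalized counts plus 1 (log axis) of the genes with the largest rises (left) and falls (right) among called genes averaging 100 or more in 1 group, a point for each of the 4 HET and 4 WT libraries in DMSO. The groups of every gene shown are apart, as for CDKN2B with 681 to 792 in HET libraries and 8.17 to 15.3 in WT libraries.

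More cell adhesion genes were lower than higher in HET cells. Among all genes tested 18.6% were higher and 16.8% lower, or 10.4% and 12.2% with the GC correction. Of 46 tested clustered protocadherins, neuronal-type adhesion molecules encoded in tandem arrays on chromosome 5, 4 were higher and 27 lower, with a median log2 difference of -1.04 (GC-corrected 3 and 27, median -1.05). Some of these genes share exons within an array, and the counts of those genes are not independent. PCDHGB5 had 0 to 9.73 normalized counts in HET libraries and 148 to 231 in WT libraries (-5.49 ± 0.57, adjusted p = 2.73e-05). PCDHB6 fell by 4.38, and PCDHGC5 had 5.25 to 18.4 in HET libraries and 130 to 197 in WT libraries, while PCDHB15 rose by 1.53. CDH2, N-cadherin, fell by 1.83 ± 0.11, with 510 to 597 normalized counts in HET libraries and 1757 to 2154 in WT libraries. CLDN4, a tight junction claudin, fell by 3.52, and the intermediate filament gene NES, nestin, by 3.84 ± 0.12, with 210 to 282 in HET libraries and 3299 to 3994 in WT libraries.

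Matrix genes were called in both directions. Of 44 collagen and collagen processing genes, 14 were higher and 14 lower, and 15 and 10 with the GC correction, where 18.6% of all genes were higher and 16.8% lower, or 10.4% and 12.2% with the correction. COL8A1, a short-chain collagen, rose by 2.09 ± 0.12, with 2428 to 2688 normalized counts in HET libraries and 491 to 714 in WT libraries. COL6A1 and COL6A2, chains of the microfibrillar collagen VI, fell by 1.83 and 1.52, and PCOLCE, the enhancer of procollagen C-proteinase, by 2.70. Of 44 matrix glycoproteins and proteoglycans 6 were higher and 19 lower, or 6 and 12 after the GC correction. ACAN, aggrecan, fell by 2.84 and LAMA4, a laminin chain, by 2.49, while MFAP5, a microfibril protein, rose by 3.42 and CCN3, a matricellular protein, by 2.20. Of 36 matrix proteases and inhibitors 5 were higher and 13 lower (GC-corrected 5 and 12). MMP7, a matrix-degrading protease, rose by 2.95, while the proteases MMP9 and ADAM12 had differences of -2.45 and -2.72. SERPINF1, which encodes the anti-angiogenic factor PEDF, had 39.8 to 54.2 normalized counts in HET libraries and 662 to 755 in WT libraries, a difference of -3.93, and KO libraries held 53.5 to 74.6.

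Chemokine and interferon genes were mostly lower among those called. Over all genes tested 18.6% were higher and 16.8% lower, or 10.4% and 12.2% with the GC correction. Of 12 chemokines and receptors 3 were higher and 6 lower (GC-corrected 2 and 6). CCL2, a monocyte attractant, had 60.3, 65.1, 62.1 and 73.5 normalized counts in HET libraries, against 597, 879, 784 and 939 in WT libraries, and fell by 3.58 ± 0.15 (adjusted p = 5.84e-08). The groups did not overlap. CXCL14, another chemokine, went the other way, with 75838 to 90978 in HET libraries and 13040 to 15138 in WT libraries (2.55 ± 0.11, adjusted p = 5.97e-08). CX3CL1, fractalkine, fell by 1.51, and ACKR3, a scavenging chemokine receptor, rose by 1.46. Of 39 interferon-stimulated genes 6 were higher and 15 lower, and 2 and 16 with the GC correction. IFI44, ISG20 and IFIT3 fell by 2.38, 1.86 and 1.81. SAMD9 passed at 2.03 ± 0.68, but lost its call with the GC correction and without HET replicate 2 or 4, and WT replicate 3 held 7.72 normalized counts against 94.0 to 124 in the other WT libraries.

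Signalling genes were called in both directions. In NOTCH and Hedgehog signalling 2 of 27 genes were higher and 12 lower, where 18.6% of all genes were higher and 16.8% lower. The counts were 3 and 13 with the GC correction, and 5 and 8 with total-count scaling. That scaling called 4627 of all 14984 genes higher and 1419 lower. The receptors NOTCH1 and NOTCH3 both fell by 1.64, and the ligands JAG1 and JAG2 by 1.96 and 1.39. NOTCH1 had 148 to 263 normalized counts in HET libraries and 450 to 932 in WT libraries. In the TGF-beta and BMP pathway 14 of 41 were higher and 9 lower, and 10 and 6 with the GC correction, where 10.4% and 12.2% of all genes were called. The inhibitors of differentiation ID2 and ID4, targets of BMP signalling, rose by 1.67 and 2.16, while NOG, the BMP antagonist noggin, fell by 2.61 ± 0.10, with 206 to 226 in HET libraries and 1229 to 1363 in WT libraries. The transcription factors SNAI2, IRX3, HOXA3 and GATA6 rose by 2.04, 1.66, 2.38 and 2.94, and SNAI1 fell by 1.46.

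In 2 metabolic lists lower calls outnumbered higher ones, where 18.6% of all genes were higher and 16.8% lower, or 10.4% and 12.2% with the GC correction. Of 13 protein-coding transcripts of the mitochondrial genome, 10 were lower and none higher, with a median of -0.88. MT-CO1, a subunit of cytochrome c oxidase, had 363390, 400859, 470712 and 386532 normalized counts in HET libraries, against 721926, 564509, 892525 and 968210 in WT libraries (-0.93 ± 0.20, adjusted p = 0.00281). The HET libraries were all lower. MT-CO2 and MT-ND2 fell by 0.89 and 0.83, and MT-CYB fell as well. The count of lower transcripts was 13 with the GC correction and 7 with total-count scaling. Under quantile normalization, which levels such abundant genes across libraries, only 1 was lower and the median was -0.09. It brought MT-CO1 to 0.00, MT-CO3 to 0.04, MT-ND4 to 0.03 and MT-ATP6 to 0.00. MTRNR2L12, a nuclear copy that resembles mitochondrial ribosomal RNA, fell by 1.51, and its reads cannot be told apart from mitochondrial ones.

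Of 37 glycolysis and hypoxia genes 4 were higher and 15 lower, and 3 and 11 with the GC correction. The shares of all genes were 18.6% and 16.8%, and 10.4% and 12.2% with the correction. GAPDH, a glycolytic enzyme, had 114354 to 147921 normalized counts in HET libraries and 263212 to 371064 in WT libraries (-1.33 ± 0.15, adjusted p = 6.06e-05), a call lost under quantile normalization. CA9, the hypoxia-induced carbonic anhydrase, had 1.77 to 6.12 in HET libraries and 83.2 to 261 in WT libraries, and fell by 4.92. ALDOC, an aldolase, fell by 1.80, and P4HA1, the collagen prolyl hydroxylase subunit, rose by 1.53. ACTB, cytoplasmic actin and a common control gene, passed at -0.59 ± 0.16. Its call was lost with the GC correction (-0.37), with total-count scaling (-0.30) and without WT replicate 1, HET replicate 1 or HET replicate 2, and its sign turned under quantile normalization (0.16).

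The calls in 2 proliferation and repair lists were fewer with base composition removed. Of 55 S phase and replication genes 3 were higher and 3 lower, where 18.6% of all genes were higher and 16.8% lower, and 1 and 4 with the GC correction. Of 61 G2 and mitosis genes 12 were higher and 12 lower, but 1 and 7 after the GC correction. Of 33 homologous recombination and Fanconi genes 10 were higher and 3 lower, and 0 and 2 with the correction, where 22.6% of all genes were called. CDK1, the mitotic kinase, rose by 1.08 and BRIP1, a repair helicase, by 1.14, and both lost their calls with the correction, at 0.15 and 0.47, BRIP1 also without HET replicate 2. PLK1, a mitotic kinase, and FOXM1, the transcription factor of G2 genes, fell by 1.02 and 0.97 and still passed, at -0.74 and -0.72. With total-count scaling the G2 and mitosis list had 21 higher and 2 lower, where 4627 of all 14984 genes were higher and 1419 lower. BIRC2, an inhibitor of apoptosis, rose by 1.76 and CCNE2, cyclin E2, by 1.58.

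**Figure D4:**
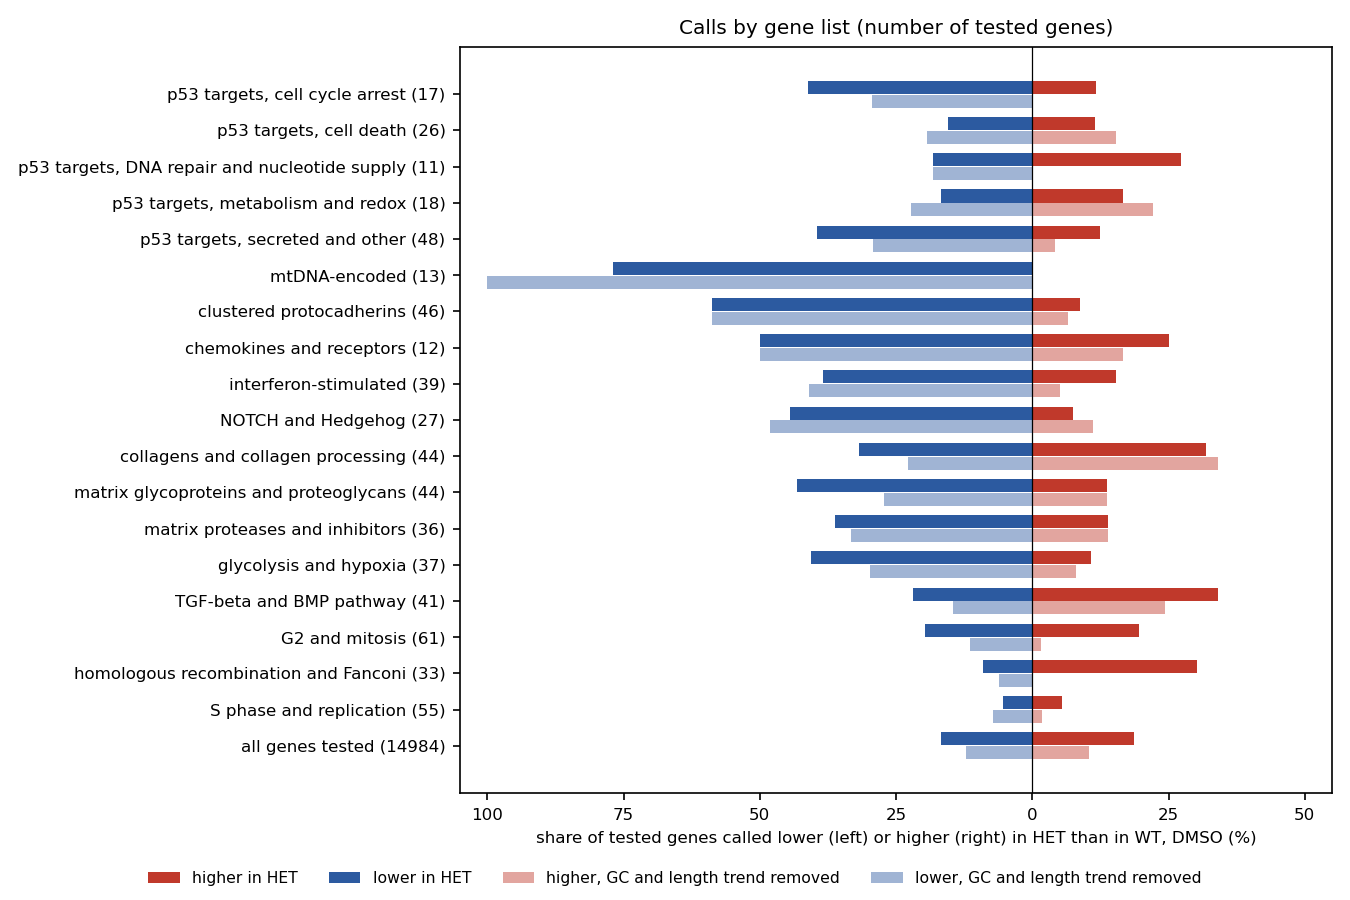
Share of the tested genes of 18 lists called lower (left) or higher (right) in HET than in WT cells in DMSO, with paler bars after removal of the GC and length trend and the number tested in brackets. Lower calls outnumber higher ones most in the 13 mitochondrial transcripts and the 46 clustered protocadherins, and the higher calls of homologous recombination genes are gone in the paler bars.

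Differences in the same direction lay next to each other in several chromosome regions. In windows of 10 Mb with at least 20 tested genes, 254 in all, the median GC-corrected difference had quartiles of -0.07 and 0.14. It was 0.4 or more in 13 windows and -0.4 or less in 10. The lowest window was 20 to 30 Mb of chromosome 18 (-0.87), followed by 40 to 50 Mb of chromosome 21 (-0.60) and 140 to 150 Mb of chromosome 5 (-0.56), which holds the clustered protocadherins. The highest were 10 to 20 Mb (0.74) and 0 to 10 Mb (0.71) of chromosome 9 and 100 to 110 Mb of chromosome 11 (0.59). In the etoposide plates, which are other libraries of the same lines, all 13 high windows were above 0.2 and all 10 low windows below -0.2. The Pearson correlation across windows was 0.92. DNA copy number was not analysed here.

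On chromosome 18, 18 consecutive tested genes from TMEM241 to DSG2 (chr18:23197144-31549008, GRCh38) all had a difference below 0, and 15 were called lower, with a median of -1.03. The ends of this run and of those below were chosen after the values were seen. The 5 tested genes before it, ending in RBBP8, had a median of 0.77, and the 5 after it had 0.37. With the GC correction the median was -1.36 in the run, with 16 called lower, 0.22 before it and -0.26 after it. Within the run NPC1, the lysosomal cholesterol transporter, had 530, 501, 561 and 617 normalized counts in HET libraries, against 1336, 1410, 1307 and 1354 in WT libraries (-1.29 ± 0.10, adjusted p = 3.41e-06). The groups were well apart. DSG2, a desmosomal cadherin, had a difference of -1.21, LAMA3, a laminin chain, of -2.24, and CABYR, a calcium-binding sperm protein, of -5.18. Against KO cells the run's GC-corrected median was -1.32, and in etoposide it was -1.14 against WT cells.

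On chromosome 21, 42 of 44 tested genes from TMPRSS3 to PRMT2 (chr21:42371837-46665124) were below 0 and 38 were called lower, with a median of -1.01, or -0.65 and 28 called lower with the GC correction. The 5 genes before it had a median of -0.25 (GC-corrected -0.16). The run holds COL6A1 and COL6A2, and LSS, lanosterol synthase, which fell by 1.07. On chromosome 9, 40 of 43 genes from PUM3 to MLLT3 (chr9:2720469-20622543) were above 0 and 32 were called higher, with a median of 1.03 (GC-corrected 0.73, 29 called). The 5 genes before it had a median of 0.33 (GC-corrected 0.24), and the 5 after it had 1.20 (GC-corrected 0.65), so the higher values went on past its last gene. JAK2, a cytokine receptor kinase, rose by 1.61, CD274, the checkpoint ligand PD-L1, by 1.88, and KDM4C, a histone demethylase, by 1.16. CD274 had 61.24 to 84.96 normalized counts in HET libraries and 13.3 to 29.6 in WT libraries. On chromosome 11, 40 of 41 genes from CNTN5 to ARHGAP20 (chr11:99020953-110713189) were above 0 and 31 were called higher, with a median of 1.02 (GC-corrected 0.59, 22 called). The 5 genes before it had a median of 1.07 (GC-corrected 0.32), and the 5 after it had -0.09 (GC-corrected 0.05). Among them are BIRC2 and the matrix metalloproteinases MMP7, MMP13 and MMP8. MMP8 had no count in WT libraries and 20.99 to 32.1 normalized counts in HET libraries, at least 9.08-fold higher given a floor of 3 counts per library.

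**Figure D5:**
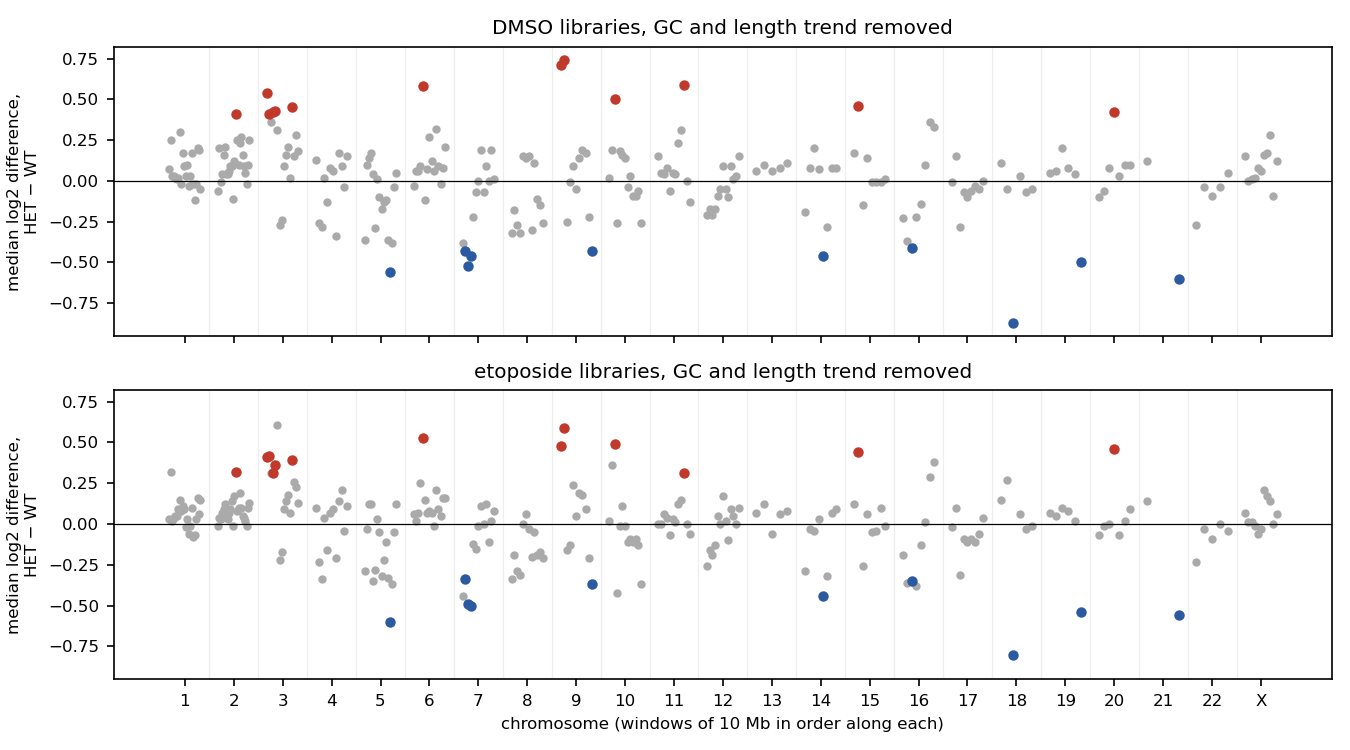
Median log2 difference between HET and WT cells, with the GC and length trend removed, in 254 windows of 10 Mb in order along the chromosomes, for DMSO (top) and etoposide (bottom). Windows at 0.4 or more in DMSO are red and those at -0.4 or less are blue in both panels, and each coloured window keeps its sign in etoposide, as in the lowest, on chromosome 18, at -0.87 in DMSO and -0.80 in etoposide.

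The same genotype difference was measured in the etoposide plates, which share no library with the DMSO plates. HET replicate 2 in etoposide held 8.05 M counts, and the other 7 etoposide libraries of these genotypes 18.25 to 23.04 M. Of 5218 genes called in DMSO and tested in both, 3026 (58.0%) were called in the same direction in etoposide and 30 in the opposite one. Of 430 genes with at least a 4-fold difference the counts were 383 (89.1%) and 4. Of the 4183 genes called in etoposide that were tested in DMSO, 72.3% were called in both. The test of the difference between the 2 conditions called 1193 genes, 7.34% of those tested. CCN3 was among them, at 2.20 in DMSO and -0.14 in etoposide, as were BCL6, at 1.25 and 0.17, and SOD2, at 1.74 and 0.53. With total-count scaling 4627 genes were higher and 1419 lower in HET cells in DMSO, and changes are to be read relative to the median of 0.28 that this scaling gives.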

How the data were processed

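Poly-A RNA libraries of U2OS cells were analysed, 4 per group. Per the submitters' processing notes, the authors quantified reads with kallisto on GRCh38 (hg38) and normalized with DESeq2; their versions and the strand of counting are not stated. Deposited values are on a log2-like variance-stabilized scale. They were inverted to normalized counts, whose mean matched the deposited mean signal over the 32 libraries within a relative difference of 4.4e-14, and undoing the library scaling gave counts whole within 0.01. Because the deposited unit is log2, limma 3.58.1 (R 4.3.3) with a trend was used on log2(normalized count + 1), two-sided, with Benjamini-Hochberg adjustment over all genes tested. Only the groups compared entered each fit. Errors given with log2 differences are limma standard errors, which include the spread between plates. The floor of 3 counts covers counting error only. No 2 replicates of the HET, WT and KO groups agreed within sampling noise (chi-square over degrees of freedom 1.89 to 67.75).

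Gene positions came from GENCODE release 29 (35403 symbols matched by name, 74 by an older symbol, 110 by neither), promoters from RefSeq. The fit was tested on simulated data for the DMSO comparison: of 14975 genes, all 100 changed 2-fold were called, 83.0% of 100 changed by 0.68 on the log2 scale, and 0.014% of the others. The simulated counts had a dispersion of 0.01 for every gene and no trend on GC content, unlike the real libraries. These shares check the code and do not give the error rate of the real calls. The 52 gene lists and the genes of interest were chosen with earlier results of these data known. Genes were named by a rule: 6 p53 genes, the 15 largest rises and falls with a mean of at least 100 in 1 group and no overlap, the 10 most abundant called genes, genes with 3 or fewer counts in 1 group, and up to 4 called members per list and direction with a mean of at least 50. Of these, the text names those with a role to describe, and leaves out 1 known only by a clone name; some genes are not reported here. Genes of the chromosome runs were chosen after their values were seen. Alternatives were the pseudocount, filter, scaling, values tested, libraries and weights in the fit, replicate block, fold threshold, each library left out, and the GC and length trend removed. Python 3.11.15 was used for the remaining steps.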

Additional observations from a re-analysis of the deposited data

Results flagged for a closer look

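In 13 of 241 groups of 4 libraries of the named genes, 1 library lay far from the other 3 by Dixon's test (5.4%, where chance gives about 1 in 20). In HET libraries these were DDB2 at 1150 normalized counts, SYTL1 at 19.3, DSG2 at 278 and CD274 at 61.2, all in replicate 3, GLUL at 4.34 and HOXA3 at 234 in replicate 2, and LAMA4 at 101 in replicate 4. In WT libraries they were SYTL1 at 127, ACTB at 200880 and ADAM12 at 960 in replicate 1, and DDB2 at 1618, TGFA at 928 and MMP13 at 112 in replicate 2.

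For 48 of the 122 named genes the difference between HET and WT cells differed between etoposide and DMSO by limma's test of the interaction. In 45 of them the difference was smaller in size with etoposide, and in 3 it was larger. Most named genes were chosen by their differences in DMSO, and that choice alone favours smaller differences in etoposide. No conclusion about etoposide is drawn from this split. The values that follow are the log2 difference in etoposide minus that in DMSO, so that a positive value means a less negative difference for a gene lower in HET cells.

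Among p53 targets that were lower in HET cells in DMSO, the change was 0.64 for CDKN1A, 1.07 for GDF15, 0.64 for STEAP3 and 1.35 for PRDM1. SYTL1 was lower still in etoposide, with a change of -1.40. Among p53 targets that were higher, the change was -1.08 for BCL6, -1.05 for TP53INP1, -1.21 for SOD2, -1.12 for FUCA1 and -1.05 for TGFA.

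Of the genes that were nearly silent in HET cells, the change was 2.07 for IGFBP4, 1.39 for GPAT2, 3.19 for FHOD3, 1.06 for GLUL, 1.31 for NLRP5, 2.79 for ADAMTS14 and 1.40 for HOXB2. It was 2.95 for C1QTNF1, 3.45 for KCNK10, 2.08 for PKP3, 1.90 for DLX4 and 1.69 for OSR2. Of the genes that were far higher in HET cells it was -1.91 for EPYC, -1.01 for CDKN2B, -4.44 for PI15, -2.42 for CLEC3A, -1.39 for CLEC7A, -2.06 for KIAA1755 and -2.44 for MMP8.

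Among chemokine and interferon genes the change was 1.41 for CCL2, -2.05 for ACKR3, -0.76 for CX3CL1 and -1.71 for IFIT3, and the differences of CX3CL1 and IFIT3 were larger in etoposide. Among matrix and adhesion genes it was 1.53 for ACAN, 0.90 for LAMA4, -2.35 for CCN3, 1.19 for ADAM12, -1.02 for MMP7 and 0.91 for CLDN4. Among signalling, developmental and mitotic genes it was 1.24 for JAG1, 1.37 for NOG, -1.03 for ID2, -1.21 for ID4, -1.03 for SNAI2, -1.66 for HOXA3, -1.50 for IRX3, 0.72 for PLK1 and 0.73 for FOXM1.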

How the results depend on the processing

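Between HET and WT cells in DMSO, 2790 genes were higher and 2515 lower. Total-count scaling gave 4627 and 1419, a 2-fold threshold 1224 and 1124, and removal of the GC and length trend, an alternative chosen after seeing the data, 1556 higher. In etoposide (2254 and 2374) total-count scaling gave 4220 and 1352 and a 2-fold threshold 658 and 974, and higher genes numbered 1397 on the variance-stabilized values and 1414 without the GC trend. Against KO cells (2878 and 2623) the values were 4858 and 1520 with total-count scaling and 1156 and 1231 at 2-fold. For the response (696 and 497), a 2-fold threshold gave 327 and 259, and lower genes numbered 301 with all 32 libraries in the fit and 753 with array weights. Leaving out 1 library gave 2174 to 3142 higher and 2125 to 2755 lower in DMSO, 2019 to 2466 and 2120 to 2484 in etoposide, 2305 to 3077 and 2309 to 2896 against KO cells, and 584 to 752 and 398 to 712 for the response.

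Of 122 named genes, 101 kept their call and direction in every setting that could test them except the 2-fold threshold. The sign turned for BAX (0.06) with total-count scaling, for MDM2 (-0.13), BBC3 (0.07) and BAX (0.05) without the GC trend, and under quantile normalization for MT-CO1 (0.00), MT-CO3 (0.04), MT-ND4 (0.03), MT-ATP6 (0.00) and ACTB (0.16). With no filter, MT-CO1, MT-CO3 and ACTB lost their calls, and under total-count scaling MT-CO3 and MT-ND2 did. RBBP8, beside the chromosome 18 run, gained a call under 6 settings. Where a cause is not plain from the setting, it was not tested. Leaving out a library removed 6 named genes (a HET library) or 16 (a WT library) from the test, since they reached 10 normalized counts in only 4 libraries.

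The shared replicate numbers were not used as pairs in the main fit. The correlation of deviations between HET and WT libraries of the same number was 0.022, 0.419, 0.111 and 0.034. Between libraries of different numbers it ranged from -0.444 to 0.187. The value of replicate 2 was the highest of all, and whether its libraries shared a batch was not tested. A fit with the replicate block gave 2897 higher and 2519 lower in DMSO, 2267 and 2400 in etoposide, 2842 and 2600 against KO cells, and 744 and 622 for the response. Genes near 0 in a group are limited by depth, since 3 counts in a library are 2.60 to 3.06 normalized counts.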

Other observations

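Counts of gene lists not described above, between HET and WT cells in DMSO, are given here as values. Shares over all genes were 18.6% higher and 16.8% lower, and 10.4% and 12.2% with the GC and length trend removed. Some of the lists lie near or below these shares. Of 58 ephrin and axon guidance genes 9 were higher and 23 lower in HET cells (9 and 14 with the GC and length trend removed), and of 41 potassium channel genes 3 were higher and 14 lower (5 and 9). Of 28 AP-1 and immediate-early genes 1 was higher and 10 lower, and 5 and 6 with the trend removed. Of 15 genes of ERK output, to which SPRY4 belongs, 1 was higher and 6 lower (1 and 3). Of 45 WNT pathway genes 8 were higher and 17 lower (6 and 9), and of 52 growth factor receptors and ligands 9 were higher and 17 lower (6 and 13).

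Among the lists with more higher than lower calls were those of the unfolded protein response of the endoplasmic reticulum, with 8 higher and 1 lower of 26 (3 and 1 with the trend removed), and cholesterol synthesis, with 7 and 1 of 31 (1 and 1). Others were mitochondrial outer membrane and dynamics, with 9 and 1 of 36 (2 and 3), CDK inhibitors, cyclins and E2F, with 7 and 2 of 31 (6 and 4), and caspases and death receptors, with 5 and 1 of 24 (4 and 4). Of 54 cytosolic ribosomal protein genes 2 were higher and 7 lower (1 and 9), and of 55 nuclear genes of the respiratory chain 7 were higher and 5 lower (4 and 2). Over all genes 18.6% were higher and 16.8% lower, and 10.4% and 12.2% with the trend removed.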
